A study of Mus musculus with 4 samples.

Results

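The 10 genes described here are Brca1 and 9 genes whose products work with it in the repair of DNA breaks by homologous recombination: Brca2, Bard1, Palb2, Brip1, Rbbp8, Uimc1, Rad51b, Atm and Fancd2. They were listed by symbol from the 32285 genes in the files, with earlier results of these data known, and all 10 were found. Their levels were read in single-nucleus RNA sequencing of mouse liver, in which each transcript molecule caught from a nucleus is counted once by its molecular tag (UMI). All 4 livers came from male mice given diethylnitrosamine, a liver carcinogen activated in hepatocytes, at 25 mg/kg when 14 days old, and non-tumor liver was taken at 12 months. The 2 groups were Brca1-WT and Brca1-KO, with 2 libraries each, so every mouse, controls included, had received the carcinogen. The sources used here do not give the strain, the promoter or Cre that made the knockout, or the exons removed. The series title places the Brca1 change in the liver and links it to Bhmt, an enzyme of methionine metabolism. The question put to these files was in which liver cells the 10 genes were read, at what level, and whether their levels differed between the groups.

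BRCA1 and BARD1 form a pair that acts as a ubiquitin ligase and is drawn to broken DNA. Through different partners it takes part in trimming the broken ends (RBBP8, also called CtIP), in a complex held on ubiquitin chains at breaks (UIMC1, also called RAP80), with a helicase (BRIP1), and, through PALB2, in bringing BRCA2 to the break. RAD51B takes part in the later steps of recombination, ATM is the kinase that signals breaks and phosphorylates BRCA1, and FANCD2 is a Fanconi anemia protein that is ubiquitinated at cross-links between DNA strands. Recombination uses the sister copy made when DNA is replicated, and most hepatocytes of an adult liver are not dividing.

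After filters, 23868 nuclei were kept: 5843 and 6970 of Brca1-WT replicates 1 and 2, and 4795 and 6260 of the Brca1-KO-labelled replicates 1 and 2, with 33321637 to 42694501 UMIs per library. Cell classes were named from marker genes, and hepatocyte-like nuclei numbered 2793, 4020, 2573 and 4091 in that order of libraries, an order kept below wherever 4 values stand together. Each of the 10 hepatocyte markers was detected in hepatocyte-like nuclei of every library, with a summed level of 15071 to 18580 CPM, the UMI count of a gene scaled to 1000000 UMIs of the nuclei concerned. The same markers summed to 2823 to 9001 CPM in the 6 other classes used, so hepatocyte RNA was read in all of them, and its part in the levels given for those classes was not tested. Endothelial, Kupffer, stellate and T/NK markers in hepatocyte-like nuclei summed to at most 67.4, 179, 45.7 and 26.7 CPM. Cholangiocyte markers, for which no cluster was named, summed to 149, 80.8, 79.9 and 182 CPM there. Pairs of libraries shared 9 to 19 barcodes, at most 0.288% of the smaller library. The hepatocyte-like nuclei of the Brca1-KO-labelled replicate 2 stood apart: 95.5% of them lay in clusters in which over 80% of nuclei came from 1 library, against 7.30%, 2.99% and 0.0777% in the others. The labels call the samples biological replicates and say no more of the mice, so every p-value measures only the spread between these libraries.

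Brca1, the gene named in the genotype, was read in every library, and its level did not follow the label. Over all nuclei it gave 11.7 and 11.2 CPM in Brca1-WT replicates 1 and 2, 17.2 in the Brca1-KO-labelled replicate 1 and 5.55 in the Brca1-KO-labelled replicate 2. Hepatocyte-like nuclei held most of these molecules, 394, 367, 543 and 224 UMIs, or 13.4, 12.4, 18.6 and 5.78 CPM. Their 95% Poisson intervals, which cover counting error only, were 12.1 to 14.8, 11.2 to 13.7, 17.1 to 20.2 and 5.04 to 6.58. The highest and the lowest Brca1 level thus both came from Brca1-KO-labelled libraries, on either side of the Brca1-WT pair, whose intervals overlapped. The group means were 12.9 ± 0.725 (SD, n = 2) in Brca1-WT and 12.2 ± 9.07 (SD, n = 2) in Brca1-KO, and an exact two-sided permutation test gave p = 1, where the smallest p that 2 against 2 libraries allow is 0.33. The removed exons are not given, and the labels name a 3′ kit, though they also list the molecule as genomic DNA. With 3′ priming, transcripts that lack inner exons would still be counted, so this level checks neither label. Within hepatocyte clusters 3, 5 and 10, the Brca1-KO-labelled replicate 1 was above both Brca1-WT libraries: in cluster 3 the levels were 14.1, 13.4, 19.5 and 6.77 CPM, the last from 2 UMIs in 69 nuclei.

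**Figure D1:**
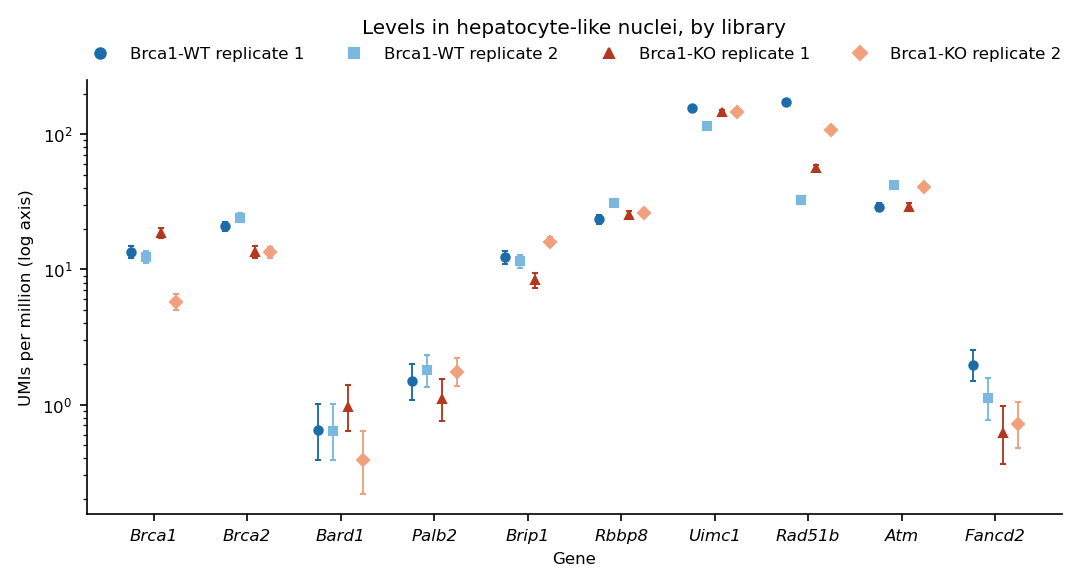
Level of each of the 10 genes in hepatocyte-like nuclei (CPM, log axis), 1 point per library, with 95% Poisson intervals as bars. Brca1 is highest in the Brca1-KO-labelled replicate 1 (18.6) and lowest in replicate 2 of that label (5.78), while for Brca2 both Brca1-KO points (13.5 and 13.4) lie below both Brca1-WT points (20.9 and 24.1).

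The stretch of 250 bases before the transcription start is shown for Brca1 and for 4 partners of differing distribution over the cell classes (Brca2, Bard1, Palb2 and Brip1), since genes used in DNA replication often carry E2F, CCAAT or CHR elements there. Of the 10 genes, 8 had an entry in the RefSeq promoter table (build GRCm38.p6). Letters that match an element on either strand are in capitals and the rest in lower case, and each sequence runs 5′ to 3′ on the gene's own strand.
Brca1: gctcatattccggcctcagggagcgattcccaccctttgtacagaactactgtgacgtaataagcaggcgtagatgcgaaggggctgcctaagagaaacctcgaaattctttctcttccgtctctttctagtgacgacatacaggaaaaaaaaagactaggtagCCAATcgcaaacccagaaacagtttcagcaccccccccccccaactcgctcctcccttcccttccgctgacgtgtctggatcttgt
Brca2: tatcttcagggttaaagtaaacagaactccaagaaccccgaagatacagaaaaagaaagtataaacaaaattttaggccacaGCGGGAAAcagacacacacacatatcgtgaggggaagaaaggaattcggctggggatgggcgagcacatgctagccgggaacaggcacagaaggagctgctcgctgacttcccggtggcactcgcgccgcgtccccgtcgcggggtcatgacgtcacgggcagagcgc
Bard1: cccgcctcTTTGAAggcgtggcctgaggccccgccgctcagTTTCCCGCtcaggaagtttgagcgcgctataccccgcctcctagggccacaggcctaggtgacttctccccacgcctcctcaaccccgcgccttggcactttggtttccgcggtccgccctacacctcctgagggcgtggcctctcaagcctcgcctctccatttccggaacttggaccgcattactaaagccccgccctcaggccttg
Palb2: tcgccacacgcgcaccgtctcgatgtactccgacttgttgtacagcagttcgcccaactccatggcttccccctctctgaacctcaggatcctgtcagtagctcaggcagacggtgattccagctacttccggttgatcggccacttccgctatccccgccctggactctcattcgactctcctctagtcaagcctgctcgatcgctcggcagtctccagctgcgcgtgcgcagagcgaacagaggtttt
Brip1: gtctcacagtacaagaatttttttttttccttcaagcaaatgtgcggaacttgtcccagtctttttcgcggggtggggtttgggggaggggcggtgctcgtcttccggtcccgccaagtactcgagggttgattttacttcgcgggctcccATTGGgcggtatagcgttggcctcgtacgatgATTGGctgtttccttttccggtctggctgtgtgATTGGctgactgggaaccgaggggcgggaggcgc
These stretches are chr11:101551956-101552205 (minus strand) for Brca1, chr5:150522371-150522620 (plus strand) for Brca2, chr1:71102973-71103222 (minus strand) for Bard1, chr7:122132947-122133196 (minus strand) for Palb2 and chr11:86201194-86201443 (minus strand) for Brip1. The E2F forms searched were TTTCCCGC, TTTCGCGC, TTTGCCGC and TTTGGCGC, and any of them was found in 1.86% of the 32851 promoters of the table. Among the 8 genes with an entry, Bard1 had one that began 209 bases before the start, and Brca2 had one on the other strand at 168 bases. The CCAAT form, present in 33.8% of promoters, was found at 86 bases in Brca1 and on the other strand at 99, 67 and 34 bases in Brip1, and Uimc1, Rad51b and Atm also held it. The CHR form TTTGAA, present in 16% of promoters, was found in Bard1 at 242 bases and in Uimc1 at 221 bases. No matched stretch overlapped another, and the Palb2 stretch held none of these letters. All 5 stretches were richer in CpG than the median promoter, which held 6: Brca1 held 12, Brca2 18, Bard1 19, Palb2 20 and Brip1 18.

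Levels were set per kilobase of gene span to compare genes, a scale that fits only as far as introns were counted, which is not stated. On it Uimc1 was by far the most abundant of the 10 in hepatocyte-like nuclei, at 1.95 CPM per kb. Brca2 (0.377), Atm (0.360), Rbbp8 (0.237), Brca1 (0.199) and Rad51b (0.179) followed, then Brip1 (0.0841) and Palb2 (0.0597). Fancd2 (0.0169) and Bard1 (0.00871), the obligate partner of BRCA1, came last. Without division by span, the mean levels over the 4 libraries were 141 ± 18.3 (SD, n = 4) CPM for Uimc1, 92.6 ± 62.7 for Rad51b, which spans 517 kb, 12.5 ± 5.27 for Brca1 and 0.659 ± 0.234 for Bard1. Of the neighbours in the order per kb, Brca2 and Atm, Rbbp8 and Brca1, Brca1 and Rad51b, Rad51b and Brip1, and Fancd2 and Bard1 differed by less than the larger of their SDs over libraries. Brca2 shares its span with Gm42531 on the same strand and Gm42529 on the other, and Rbbp8 and Fancd2 each overlap an opposite-strand gene, with at most 121 UMIs in any of these. Whether the counting used strand is not stated, so reads of such pairs may have been exchanged.

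Between cell classes, the genes did not move as a set: Brca1, Brca2 and Brip1 were lower in endothelial-like than in hepatocyte-like nuclei, while Palb2, Rbbp8 and Atm were higher. The 6 other classes were each compared with hepatocyte-like nuclei over the 4 libraries, with edgeR's quasi-likelihood test, the library as a block and Benjamini-Hochberg adjustment over 11160 genes. Of the 10 genes, 8 passed the count filter, and Bard1 and Fancd2 did not. Calls numbered 8 of 8 in endothelial-like nuclei, where 69.8% of all genes were called: 3 were higher and 5 lower, beside 33.4% and 36.4% of all genes. Kupffer-like nuclei had 6 calls (66.1% of all genes), 3 higher and 3 lower (30.9% and 35.2%), and stellate-like nuclei also 6 (65.2%), 3 higher and 3 lower (31.1% and 34.1%). T/NK-like nuclei had 5 calls (58.7%), 2 higher and 3 lower (23.8% and 34.9%). Monocyte and dendritic-like nuclei had 2 (54.8%), both higher (25.4%; 29.4% of genes were lower), and B and plasma-like nuclei 3 (49.7%), 2 higher and 1 lower (17.9% and 31.8%). These 30 calls of 48 were near the share for all genes, and 15 were higher and 15 lower than in hepatocyte-like nuclei. The higher calls include those of Palb2, which the count filter in part sets, as described below. All 30 kept their sign, and 18 kept the call, under every alternative in which the gene could be tested, the 2 added after the data were seen aside. Atm, Rbbp8, Uimc1 and Rad51b were tested in 6 such alternatives, Brca2, Palb2 and Brip1 in 5 and Brca1 in 4. After thinning to 1000 UMIs, Brca1, Brca2, Palb2 and Brip1 could not be tested. Scaling matters here: the log2 fold changes use TMM, under which the median gene lay at -0.32 (B and plasma) to -0.04 (endothelial), whereas with plain library totals, the scale of the CPM printed here, it lay at -0.01 (stellate) to 0.27 (T/NK). With library totals 19 of 29 calls were higher (65.5%, against 57.7% over all genes), where TMM gave 50% against 44.6%. DESeq2 gave 19 of 28 (67.9% against 56.3%).

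**Figure D2:**
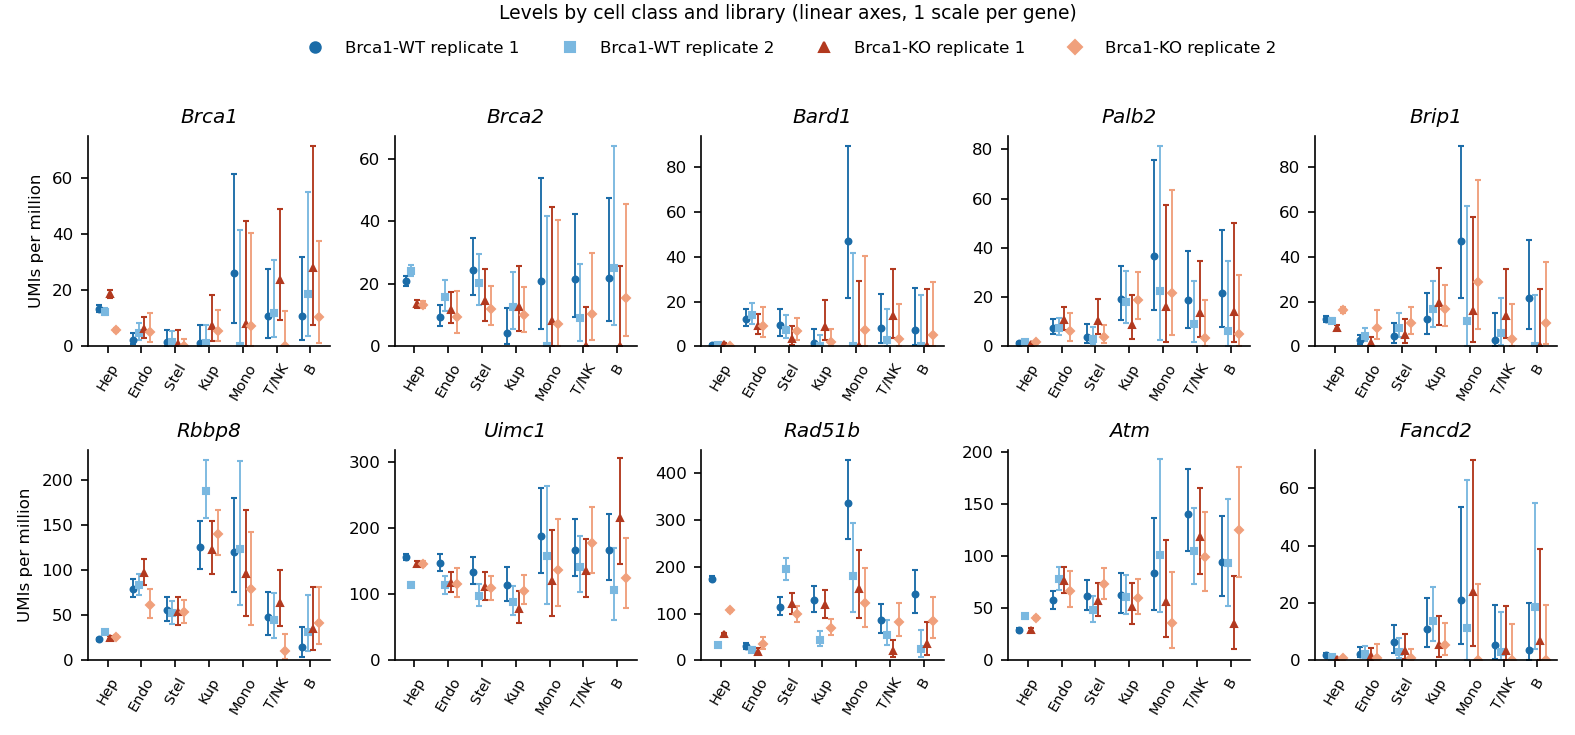
Level of each gene by cell class (CPM, linear axis scaled to each gene), 1 point per library, with 95% Poisson intervals as bars. Brca1 is at 1.57 or below in all 4 stellate-like sums, while Bard1 (9.06 to 14.1 in endothelial-like nuclei) and Palb2 stand above their hepatocyte-like levels in most other classes.

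**Figure D3:**
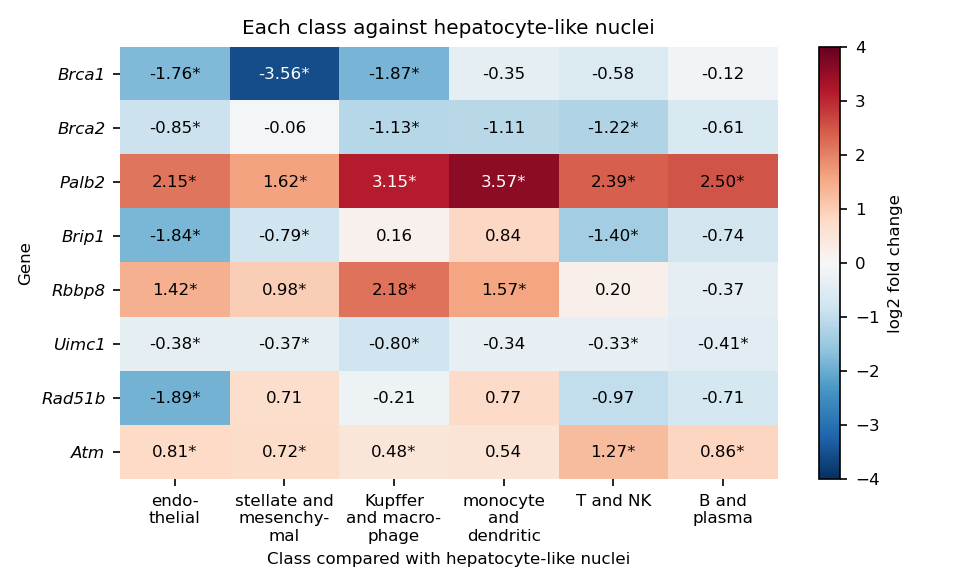
Heat map of log2 fold changes of 6 cell classes over hepatocyte-like nuclei for the 8 genes that passed the count filter, with a star where the adjusted p of edgeR's quasi-likelihood test is below 0.05. Palb2 is higher in all 6 classes (1.62 to 3.57), and Brca1 is lowest in stellate-like nuclei. Palb2 passed the filter through classes in which it was high, so its stars are in part set by the filter.

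Brca1 itself was lower in 3 classes, endothelial-like, Kupffer-like and stellate-like nuclei, than in hepatocyte-like nuclei, while in B and plasma-like, T/NK-like and monocyte and dendritic-like nuclei no difference was called. Endothelial-like nuclei gave 8, 12, 12 and 5 UMIs, or 2.43, 4.71, 6.04 and 5.14 CPM, each below the hepatocyte-like value of the same library. Stellate-like nuclei gave 2, 2, 1 and 0 UMIs, or 1.57, 1.505, 1.05 and 0 CPM, where 0 of 535 nuclei allow up to 2.23 CPM. The log2 fold change from hepatocyte-like nuclei was -1.76 (SE 0.32, adjusted p = 7.5e-06) in endothelial-like, -1.87 (SE 0.44, adjusted p = 0.000357) in Kupffer-like and -3.56 (SE 0.51, adjusted p = 1.3e-07) in stellate-like nuclei by edgeR's quasi-likelihood test. T/NK-like nuclei (10.8, 12.0, 23.7 and 0 CPM, from at most 7 UMIs) and B and plasma-like nuclei (10.9, 18.7, 27.8 and 10.4, from at most 4 UMIs) did not differ detectably from hepatocyte-like nuclei at this depth, with adjusted p of 0.267 and 0.853. The sign in B and plasma-like nuclei turned under DESeq2, with library totals and in the fit of these classes alone. Kupffer-like nuclei lay at 1.39 to 7.12 CPM (1 to 5 UMIs) and monocyte and dendritic-like nuclei at 0 to 26.2 CPM (0 to 5 UMIs). Shares of nuclei with a Brca1 UMI ran from 4.89% to 16.2% in hepatocyte-like nuclei, at medians of 5949.5 to 9513 UMIs per nucleus, and from 0% to 0.398% in stellate-like nuclei, at 1927 to 2226. With every nucleus thinned to 1000 UMIs the hepatocyte-like shares were 1.52%, 1.75%, 1.83% and 0.565%, still above the largest stellate-like share of 0.418%.

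Bard1, whose product holds BRCA1 in its active pair, had the opposite distribution. Hepatocyte-like nuclei gave 19, 19, 28 and 15 UMIs, or 0.647, 0.642, 0.960 and 0.387 CPM. Endothelial-like nuclei, with far fewer UMIs in all, gave 41, 36, 18 and 9 Bard1 UMIs, or 12.4, 14.1, 9.06 and 9.26 CPM. Stellate-like nuclei lay between, at 9.45, 7.52, 3.14 and 6.69 CPM, above every hepatocyte-like value. Fits of each class and hepatocyte-like nuclei alone were chosen after the data were seen. The log2 fold change of Bard1 was 3.95 (SE 0.31) in endothelial-like nuclei (66% of genes called, 31.2% of all genes as higher). It was 3.35 (SE 0.46) in stellate-like nuclei (63.5% of genes called, 29.8% higher). T/NK-like nuclei gave 2.99 (SE 0.75; 48.2% called, 20.6% higher) from 3, 1, 4 and 1 UMIs. Bard1 did not pass the count filter with all classes together and entered those fits through the classes in which it was high. That it was called there is in part set by the filter, so no result is drawn from the calls and only the levels are read. The 9 Bard1 UMIs of monocyte and dendritic-like nuclei in Brca1-WT replicate 1 (47.1 CPM) were not matched in the other libraries (0, 0 and 7.24). Bard1 ran from 0 to 8.90 CPM in Kupffer-like, 3.01 to 13.5 in T/NK-like and 0 to 7.24 in B and plasma-like nuclei.

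Brip1, the helicase that binds the BRCT repeats of BRCA1, was lower in endothelial-like nuclei, as Brca1 was, but not in Kupffer-like nuclei. It gave 12.3, 11.4, 8.33 and 16.1 CPM in hepatocyte-like nuclei and 2.73, 4.71, 1.51 and 8.23 in endothelial-like nuclei, lower in each library, with a log2 fold change of -1.84 (SE 0.32, adjusted p = 4.5e-06). Kupffer-like nuclei, at 12.5, 16.6, 19.6 and 16.6 CPM, were not called (log2 fold change 0.16), unlike for Brca1. Calls of lower Brip1 in stellate-like (-0.79, adjusted p = 0.0320) and T/NK-like nuclei (-1.40, adjusted p = 0.0212) were lost under DESeq2 and when Brca1-WT replicate 1, Brca1-WT replicate 2 or the Brca1-KO-labelled replicate 2 was left out (adjusted p 0.057 to 0.131). The levels there were 4.72 to 10.4 CPM in stellate-like and 2.69 to 13.5 in T/NK-like nuclei, with 11.3 to 47.1 in monocyte and dendritic-like and 0 to 21.7 in B and plasma-like nuclei.

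Rbbp8 and Uimc1, which bring BRCA1 to end trimming and to ubiquitin chains, differed from each other. Rbbp8 was higher in 4 classes. Uimc1 was lower in Kupffer-like nuclei, and its smaller differences in the other classes depended on the scaling. Rbbp8 gave 23.5, 31.2, 25.3 and 26.2 CPM in hepatocyte-like nuclei and 126, 188, 123 and 141 in Kupffer-like nuclei, groups far apart in every library. Its log2 fold change was 2.18 (SE 0.17, adjusted p = 9.1e-14) in Kupffer-like, 1.57 (SE 0.27, adjusted p = 5.0e-06) in monocyte and dendritic-like, 1.42 (SE 0.17, adjusted p = 1.5e-09) in endothelial-like and 0.98 (SE 0.18, adjusted p = 1.0e-05) in stellate-like nuclei. Levels were 79.6 to 124 CPM, 61.7 to 97.6 and 52.7 to 55.9 in the last 3 of these classes, with 10.3 to 64.3 in T/NK-like and 14.5 to 41.6 in B and plasma-like nuclei, which were not called. Uimc1 was read nearly evenly: 157, 115, 147 and 146 CPM in hepatocyte-like, 148, 114, 118 and 116 in endothelial-like and 167, 141, 135 and 178 in T/NK-like nuclei. TMM scaling called Uimc1 lower in 5 classes, by -0.80 (SE 0.14, adjusted p = 3.1e-06) in Kupffer-like nuclei and by -0.41 to -0.33 in the other 4. With library totals the sign turned in T/NK-like (0.14, adjusted p = 0.436) and B and plasma-like nuclei (0.09, adjusted p = 0.682), and the endothelial-like call was lost (-0.18, adjusted p = 0.204). DESeq2 also gave no call in these 4 classes. Stellate-like nuclei held Uimc1 at 97.8 to 135 CPM, B and plasma-like at 106 to 216 and monocyte and dendritic-like at 120 to 189. The Kupffer-like levels of Uimc1, 114, 88.6, 78.3 and 105 CPM, were below the hepatocyte-like level in each library.

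Palb2 and Brca2, whose products act in series after BRCA1, also parted. Palb2 gave 1.499, 1.79, 1.10 and 1.75 CPM in hepatocyte-like nuclei, from 32 to 68 UMIs per library, and 19.4, 18.0, 8.90 and 18.8 in Kupffer-like nuclei, from 5 to 17 UMIs. Its levels were 6.17 to 10.6 CPM in endothelial-like, 3.01 to 10.47 in stellate-like, 3.42 to 18.8 in T/NK-like, 5.20 to 21.7 in B and plasma-like and 15.9 to 36.7 in monocyte and dendritic-like nuclei. Palb2 was called higher in all 6 classes, with log2 fold changes of 3.57 (SE 0.59, adjusted p = 2.5e-06) in monocyte and dendritic-like, 3.15 (SE 0.36, adjusted p = 6.5e-10) in Kupffer-like, 2.501 (SE 0.64, adjusted p = 0.00117) in B and plasma-like, 2.39 (SE 0.53, adjusted p = 0.000178) in T/NK-like, 2.15 (SE 0.32, adjusted p = 2.6e-07) in endothelial-like and 1.62 (SE 0.42, adjusted p = 0.000949) in stellate-like nuclei. Leaving out replicate 1 of Brca1-KO ended the stellate-like call (0.98, adjusted p = 0.0762), and leaving out Brca1-WT replicate 1 ended the B and plasma-like call (1.86, adjusted p = 0.123). Palb2, low in hepatocyte-like nuclei, passed the count filter through classes in which it was high. Its calls are thus in part set by the filter, as for Bard1, and no result is drawn from them. The levels printed for the 6 classes all lay above the hepatocyte-like ones. Brca2 gave 20.9, 24.1, 13.5 and 13.4 CPM in hepatocyte-like nuclei, and stellate-like nuclei held it at like levels, 24.4, 20.3, 14.7 and 11.9 CPM, in contrast to Brca1. Brca2 was called lower in endothelial-like (-0.85, SE 0.25, adjusted p = 0.00256), Kupffer-like (-1.13, SE 0.33, adjusted p = 0.00295) and T/NK-like nuclei (-1.22, SE 0.42, adjusted p = 0.0125). The T/NK-like call rested on 8, 3, 0 and 3 UMIs and was lost with library totals (-0.75, adjusted p = 0.138) and without Brca1-WT replicate 2 (-0.96, adjusted p = 0.121). Without Brca1-WT replicate 1, the Kupffer-like value for Brca2 was -0.77 (adjusted p = 0.0518). Brca2 levels were 9.26 to 15.7 CPM in endothelial-like, 4.16 to 12.5 in Kupffer-like, 0 to 25.0 in B and plasma-like and 0 to 20.9 in monocyte and dendritic-like nuclei.

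Rad51b, of the later steps of recombination, varied more between libraries than between groups. Hepatocyte-like nuclei gave 174, 32.9, 56.1 and 107 CPM, with 95% Poisson intervals of 170 to 179, 30.9 to 35.0, 53.4 to 58.9 and 104 to 110.5. The highest and lowest levels both came from Brca1-WT, whose intervals lay far apart, and the 2 Brca1-KO-labelled libraries lay between them. The same order held in hepatocyte cluster 3, at 123, 18.2, 52.0 and 81.3 CPM, and cluster 16, of which 87.2% of nuclei came from Brca1-WT replicate 1, reached 602. Brca1-WT replicate 1 was also highest in Kupffer-like (129 against 44.3, 118 and 69.8) and B and plasma-like nuclei (141 against 25.0, 34.8 and 83.2) but not in stellate-like nuclei, where Brca1-WT replicate 2 was highest (115, 194, 120 and 98.8). Shares of hepatocyte-like nuclei with a Rad51b UMI were 56.1%, 13.9%, 29.6% and 41.1%, and 14.6%, 3.19%, 4.48% and 9.11% after thinning to 1000 UMIs. The lowest class was endothelial-like, with 2.10% to 4.97% at medians of 1255 to 1851 UMIs per nucleus, and 1.51% to 3.73% after thinning. Its level there was 30.4, 22.7, 18.6 and 36.0 CPM, with a log2 fold change of -1.89 (SE 0.40, adjusted p = 0.000275), and no other class was called. Levels in the classes not yet given were 20.3 to 86.1 CPM in T/NK-like and 123 to 335 in monocyte and dendritic-like nuclei. With library totals the latter were called higher than hepatocyte-like nuclei (1.19, adjusted p = 0.0327).

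**Figure D4:**
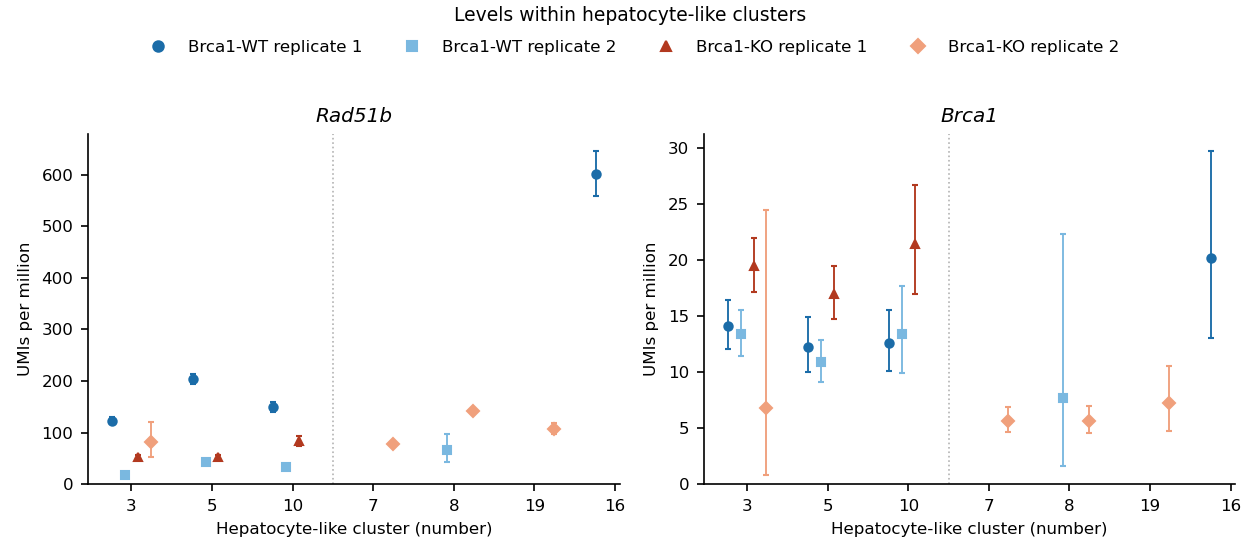
Level of Rad51b and Brca1 (CPM) in each hepatocyte-like cluster that held at least 50 nuclei of a library, 1 point per library, with 95% Poisson intervals as bars. For Rad51b, Brca1-WT replicate 1 is above Brca1-WT replicate 2 in clusters 3 (123 against 18.2), 5 (204 against 42.8) and 10 (150 against 32.8), so the gap between these libraries is present within clusters.

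Atm, the kinase that signals breaks, was highest in T/NK-like nuclei. It gave 28.8, 42.3, 28.9 and 40.6 CPM in hepatocyte-like nuclei and 140, 105, 118 and 99.1 in T/NK-like nuclei, without overlap. The log2 fold change was 1.27 (SE 0.20, adjusted p = 1.5e-06) in T/NK-like, 0.86 (SE 0.25, adjusted p = 0.00389) in B and plasma-like, 0.81 (SE 0.17, adjusted p = 7.2e-05) in endothelial-like, 0.72 (SE 0.18, adjusted p = 0.000636) in stellate-like and 0.48 (SE 0.20, adjusted p = 0.0294) in Kupffer-like nuclei. Atm levels were 34.8 to 125 CPM in B and plasma-like, 57.7 to 77.6 in endothelial-like, 48.2 to 72.8 in stellate-like, 51.6 to 62.4 in Kupffer-like and 36.2 to 101 in monocyte and dendritic-like nuclei. Leaving out Brca1-WT replicate 1 ended the Kupffer-like call (0.39, adjusted p = 0.144) and the B and plasma-like call (0.73, adjusted p = 0.0526), and leaving out replicate 1 of Brca1-KO ended the Kupffer-like call (0.43, adjusted p = 0.084). Fancd2, the Fanconi anemia protein, was low in hepatocyte-like nuclei, at 1.98, 1.11, 0.617 and 0.722 CPM from 58, 33, 18 and 28 UMIs. Kupffer-like nuclei gave 8, 10, 3 and 5 UMIs, or 11.1, 13.9, 5.34 and 5.54 CPM, all above the hepatocyte-like values. A fit of these classes alone, chosen after the data were seen, gave a log2 fold change of 2.77 (SE 0.46). In it 60.3% of genes were called and 26.8% as higher. Such fits gave 3.21 (SE 0.84) in monocyte and dendritic-like nuclei (42.1% called, 18% higher), from 0 to 4 UMIs per library (0 to 23.9 CPM). The value was 2.19 (SE 0.92) in B and plasma-like nuclei (36.8% called, 15.7% higher), from 0 to 3 UMIs (0 to 18.7 CPM). In both of these classes the range of levels took in the hepatocyte-like values. The limit of the filter is the same as for Bard1, so no result is drawn from these calls. Fancd2 was at 1.03 to 2.43 CPM in endothelial-like, 0.743 to 6.30 in stellate-like and 0 to 5.38 in T/NK-like nuclei.

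Shares of nuclei with a UMI were compared with the levels after depth was set equal. Hepatocyte-like nuclei, the deepest class, held a UMI of Uimc1 in 49.9% to 72.9% of nuclei, of Atm in 22.4% to 28.1%, of Rbbp8 in 16.9% to 20.8%, of Brca2 in 10.3% to 17.2% and of Brip1 in 6.82% to 11.4%. Palb2 (1.24% to 1.59%), Fancd2 (0.611% to 1.83%) and Bard1 (0.342% to 0.855%) were read in few of them. After thinning to 1000 UMIs, which left out 7 to 33 hepatocyte-like nuclei per library, the shares were 10.95% to 14.6% for Uimc1, 2.79% to 4.12% for Atm, 1.75% to 3.32% for Rbbp8, 1.13% to 2.20% for Brca2 and 0.701% to 1.45% for Brip1. They were 0.0362% to 0.250% for Palb2, 0.0499% to 0.254% for Fancd2 and 0% to 0.117% for Bard1. Kupffer-like nuclei, whose median depth was 1413 to 1697 UMIs before thinning and of which 60 to 110 per library were left out, gave 10.4% to 17.9% for Rbbp8 and 0.8% to 2.49% for Palb2. T/NK-like nuclei gave 9.91% to 14.1% for Atm, and endothelial-like nuclei gave 0.784% to 1.35% for Bard1. Each of these ranges lay above the hepatocyte-like range of the same gene, in the order of the CPM.

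No gene of the 10 was called between the genotype groups in any cell class in which it could be tested. In hepatocyte-like nuclei, where all 10 passed the count filter, edgeR's quasi-likelihood test called 0 of 15113 genes (0%) at an adjusted p below 0.05; 499 genes had an unadjusted p below 0.05, and DESeq2 called 23 genes, none of them among the 10. Brca2, the partner brought in through PALB2, came nearest. Its 20.9 and 24.1 CPM in Brca1-WT and 13.5 and 13.4 in the Brca1-KO-labelled libraries did not overlap, and neither did their 95% Poisson intervals (19.3 to 22.6 and 22.4 to 26.0, against 12.2 to 14.9 and 12.2 to 14.6). The mean was 22.5 ± 2.31 (SD, n = 2) in Brca1-WT and 13.4 ± 0.127 (SD, n = 2) in Brca1-KO. The log2 fold change was -0.69 (SE 0.19, unadjusted p = 0.0132, adjusted p = 0.989), and it stayed between -0.80 and -0.57 when any 1 library was left out. Stellate-like nuclei showed Brca2 in the same order of groups, at 24.4 and 20.3 against 14.7 and 11.9 CPM (log2 fold change -0.72, SE 0.32, adjusted p = 0.991), whereas in endothelial-like nuclei the groups overlapped (9.41, 15.7, 11.6 and 9.26).

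Fancd2 was the other gene of the 10 whose hepatocyte-like libraries did not overlap between groups, at 1.98 and 1.11 against 0.617 and 0.722 CPM, with a log2 fold change of -1.14 (SE 0.45, unadjusted p = 0.0504, adjusted p = 0.989). These 2 genes of 10 were lower in both Brca1-KO-labelled libraries, where 19.7% of all genes tested were, and 0 of 10 were higher in both, where 11.5% of all genes were. Over all nuclei 4 of 10 were lower in both (Brca2, Bard1, Palb2 and Fancd2), where 29.3% of all genes were, and 0 were higher, where 9.44% were. Bard1 over all nuclei was at 2.48 and 1.89 against 1.80 and 0.89 CPM. Of its 253 UMIs, 104 lay in endothelial-like nuclei, which numbered 1568, 1568, 1192 and 673 in the 4 libraries, and 81 in hepatocyte-like nuclei. The part of these nuclei numbers in the Bard1 sums was not tested. Fewer cells of a type and less RNA per cell cannot be told apart in such sums.

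**Figure D5:**
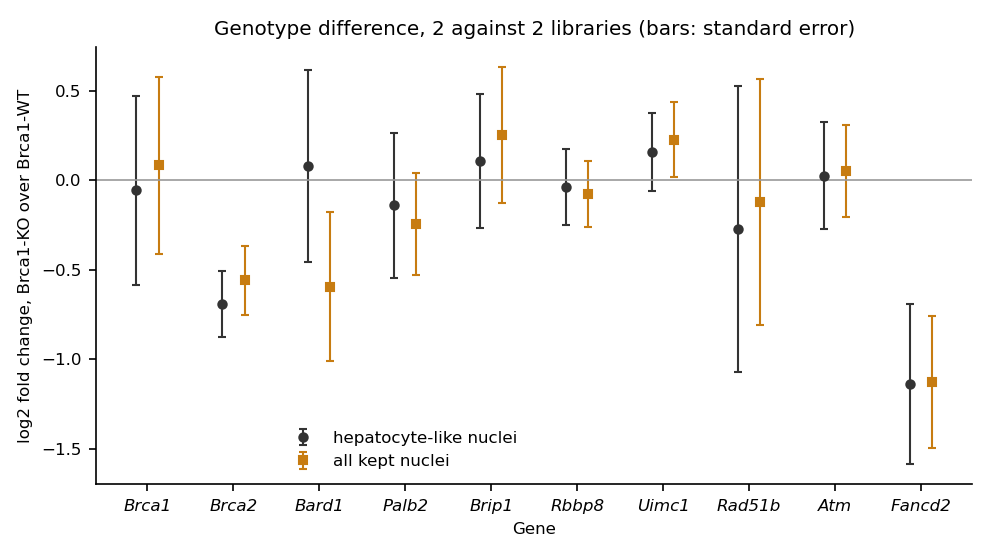
Log2 fold change of Brca1-KO over Brca1-WT for the 10 genes in hepatocyte-like nuclei and in all nuclei (edgeR's quasi-likelihood fit, points with 1 SE as bars, 0 marked by a line). Brca2 (-0.69 in hepatocyte-like nuclei) and Fancd2 (-1.14) lie farthest below 0 in units of their error, and no adjusted p is below 0.05.

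The 8 other genes gave hepatocyte-like log2 fold changes from -0.27 (Rad51b, SE 0.80) to 0.16 (Uimc1, SE 0.22). Brca1 was at -0.06 (SE 0.53), with an error that spans a wide range of changes in either direction. The median over the 10 genes was -0.05, beside -0.01 over all genes tested. In other classes 9 of the 10 genes could be tested in endothelial-like, 6 in Kupffer-like and stellate-like, 4 in T/NK-like and monocyte and dendritic-like and 3 in B and plasma-like nuclei, and 0 were called in each. Only monocyte and dendritic-like nuclei had a call among all genes, 1 of 3378 (0.0296%). The other 5 classes had 0 (0%), with 141 to 384 genes at an unadjusted p below 0.05, and DESeq2 called 1 gene in B and plasma-like nuclei and 0 in the others. Of the 10 genes, both Brca1-KO-labelled libraries were below both Brca1-WT libraries for 2 in endothelial-like (22% of all genes), 2 in Kupffer-like (21.1%), 3 in stellate-like (20%), 0 in T/NK-like (15.7%), 5 in monocyte and dendritic-like (18.3%) and 1 in B and plasma-like nuclei (21.5%). They were above both for 1 (10.6%), 3 (12.4%), 0 (12.9%), 0 (12.3%), 0 (14.2%) and 1 (15.3%) in the same order of classes. These counts take in genes below the count filter, while the shares are of genes that passed it. Of the shares of hepatocyte-like nuclei with a UMI after thinning to 1000, Brca2 (1.92% and 2.20% against 1.52% and 1.13%) and Rbbp8 (2.25% and 3.32% against 1.75% and 2.11%) did not overlap between groups, and for Rbbp8 the mean difference turned sign without thinning. How many of all genes would not overlap by this measure was not computed, so no result about the 10 genes is drawn from it.

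Other genes of the same repair routes gave 0 calls in the genotype comparison of hepatocyte-like nuclei, and each is given with its log2 fold change there. Of 13 end-resection genes, 4 were below both Brca1-WT libraries in both Brca1-KO libraries and 0 above, with a median of -0.07. They included Blm, a helicase of long-range resection (12.4, 13.2, 10.0 and 5.23 CPM, -0.71, adjusted p = 0.989), and Samhd1, a dNTP hydrolase that also aids resection (11.9, 12.6, 8.98 and 7.53, -0.52). Rmi1, of the complex that works with Blm, was at 0.26. Of 14 end-joining genes, 3 were below and 2 above (median -0.14). Xrcc6 and Xrcc5 encode the subunits of the Ku end-binding pair. Xrcc6 was at 20.7, 18.8, 21.3 and 29.8 (0.43), and Xrcc5 at 56.5, 34.8, 34.8 and 32.8 (-0.38), a value that was 0.003 without Brca1-WT replicate 1. Nhej1, a ligation factor, was at 22.8, 28.7, 29.4 and 33.4 (0.34).

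Of 11 genes of the BRCA1-A complex and its relatives, to which Uimc1 belongs, 1 was below and 1 above, with a median of 0.07. Babam2, a subunit of that complex, was at 251, 217, 277 and 223 CPM (0.14), Mdc1, a break-mark adaptor, at 0.30, and Bap1, a deubiquitinase, at -0.24 on the log2 scale. Of 14 Fanconi anemia genes, 2 were below and 1 above (median 0.10), with Fancf, a core complex subunit, at 0.65, Faap100 at 0.36 and Fan1, a nuclease, at -0.22. Of 11 kinase and checkpoint genes, 3 were below and 0 above (median -0.01): Atr, the kinase of replication stress (48.1, 47.9, 41.5 and 39.0 CPM, -0.20), and the clamp subunits Rad9a (-0.76) and Hus1 (-0.23). The junction-processing list had 7 genes, with 0 below, 1 above and a median of -0.02. The nuclease subunit Ercc1 was at -0.29 there, and the helicases Recql and Recql5 were at 0.16 and -0.07. No list's share below both Brca1-WT libraries can be read as more than a count beside the 19.7% of all genes.

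Genes that mark dividing cells were set beside these values because recombination is tied to DNA replication. Of 21 such genes tested in hepatocyte-like nuclei, 4 were below and 3 above, with 0 calls and a median of -0.01. Anln, an actin-binding protein of cell division, gave 4.36, 0.912, 0.685 and 0.438 CPM (log2 fold change -2.19, adjusted p = 0.989), high in Brca1-WT replicate 1 alone. Atad2, a chromatin ATPase, gave 5.59, 11.6, 9.70 and 20.3 (0.87), and Aspm, a spindle-pole protein, 0.545, 0.709, 0.754 and 1.32 (0.79). Nuclei with UMIs of at least 2 of 30 proliferation genes made up 18.2%, 11.1%, 20.2% and 20.0% of hepatocyte-like nuclei, and held more UMIs in all (median 13177.5 against 8021 in Brca1-WT replicate 1). Such nuclei gave 11.7, 15.02, 20.7 and 4.87 CPM of Brca1, where the rest gave 14.0, 11.8, 17.7 and 6.21, so neither was higher throughout. Pooled ratios over the 10 genes ran from 0.903 (Brca2) to 1.15 (Brip1). Only Rbbp8 was higher in such nuclei in all 4 libraries, with a pooled ratio of 1.03, and it was not so with a minimum of 1 or 3 genes. Brca1 transcripts in hepatocyte-like nuclei were thus read on both sides of this split. The split also follows depth per nucleus, so it does not tell dividing nuclei from the rest. Other classes differed, on few UMIs. Endothelial-like nuclei with proliferation genes gave Brca1 at 14.6 CPM against 3.42 in the rest (9 and 28 UMIs), higher in all 4 libraries. In Kupffer-like nuclei Brip1 (ratio 2.91) and Rad51b (1.77) were higher in all 4 libraries, and Uimc1 (0.763) in 0. In stellate-like nuclei Brca1 gave 0 UMIs against 5, and Rbbp8 had a ratio of 0.515. Monocyte and dendritic-like nuclei gave ratios of 10.1 for Brca1 (5 and 2 UMIs, higher in 2 libraries) and 60.8 for Brip1 (15 and 1, in 3). T/NK-like nuclei gave 3.62 for Brca1 (7 and 8 UMIs) and 12.4 for Brip1 (6 and 2), each higher in 2 libraries. There Rbbp8 (0.809), Uimc1 (0.587) and Atm (0.524) were lower. B and plasma-like nuclei gave 0.487 for Brca1 (1 and 11 UMIs). These ratios were not tested. Between cell classes, 17 proliferation genes were tested against hepatocyte-like nuclei. Of these, 13 were called higher in endothelial-like nuclei (median log2 fold change 2.39, beside 33.4% of all genes called higher), 13 in Kupffer-like (2.42, 30.9%), 16 in T/NK-like (4.39, 23.8%) and 16 in monocyte and dendritic-like nuclei (4.46, 25.4%). Only 6 were in B and plasma-like (1.63, 17.9%) and 5 in stellate-like nuclei (0.32, 31.1%), and 1 was called lower in endothelial-like and 1 in stellate-like nuclei. The 17 genes are those of the list that passed the count filter over all classes. Genes low in hepatocyte-like nuclei could pass it only through classes in which they were high. These counts are thus in part set by the filter, and no result is drawn from them.

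Across the 28 sums of 4 libraries and 7 classes, the genes whose log2 levels ran most like Brca1 were Mpdu1 (Pearson r = 0.84), Secisbp2 (0.82) and Sap130 (0.81). For Rad51b they were Diaph2 (0.76), Ptprs (0.74) and Tbl1xr1 (0.72), and for Atm they were Kdm4c (0.82), B2m (0.82) and Capn1 (0.81). These are descriptions over sums that share libraries and differ in depth between classes, and much of the likeness is between classes: over the 4 hepatocyte-like sums alone r was 0.44 for Mpdu1, 0.56 for Secisbp2 and 0.99 for Sap130 with Brca1, and -0.49 for Kdm4c, 0.93 for B2m and -0.21 for Capn1 with Atm.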

How the data were processed

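Droplet 3′ single-nucleus RNA sequencing was done on 4 livers. The deposited matrices hold the authors' UMI counts per gene and barcode, not normalized. Per the file headers they came from Cell Ranger 6.0.0. The submitters' processing notes name GRCh38, a human build, while gene IDs are mouse, and the sources used here do not give the mouse build or whether introns and strand were counted. Gene spans came from GENCODE vM21 (32235 of 32285 IDs matched).

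Nuclei with at least 500 genes and at most 5% mitochondrial UMIs were kept, and Scrublet (scanpy 1.11.5, expected rate 0.06) removed 2.99% to 11.3% per library as doublets. Clusters (2000 variable genes, none of them among the 10 described, 30 components, 15 neighbours, resolution 1) were named from markers; 3 of 20, with 159 nuclei, stayed unnamed, and classes under 30 nuclei in a library were left out. Levels are CPM, a class's UMIs of a gene per 1000000 UMIs of that class in a library, with exact Poisson 95% intervals and a floor of 3 counts; shares of nuclei were compared after thinning to 1000 UMIs. Sums per library were tested with edgeR 4.0.16 (R 4.3.3; quasi-likelihood, TMM, filterByExpr), with DESeq2 1.42.0 as an alternative; the scripts were tested on simulated data. Other alternatives were no filter, thinning, a replicate block, clusters mostly of 1 library left out and each library left out. Fits of 2 classes alone and with library totals were chosen after the data were seen. Beyond the 10 genes, those named are, for each list, up to 3 with the smallest unadjusted p between genotypes in hepatocyte-like nuclei, and the 3 most alike in level (log2 of CPM + 1). Members and lists were chosen with earlier results of these data known. Replicate numbers were not taken as pairs. One list of repair genes is not reported here.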

Additional observations from a re-analysis of the deposited data

Results flagged for a closer look

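For Brca1 the ratio of Brca1-KO to Brca1-WT mean levels was 4.57 in Kupffer-like nuclei (1.39 and 1.39 against 7.12 and 5.54 CPM, from 1 to 5 UMIs) and 1.57 in endothelial-like nuclei (2.43 and 4.71 against 6.04 and 5.14 CPM, from 5 to 12 UMIs), but 0.340 in stellate-like nuclei (1.57 and 1.505 against 1.05 and 0 CPM, from 0 to 2 UMIs). Bard1, the partner of Brca1, gave a ratio of 8.02 in Kupffer-like nuclei (1.39 and 0 against 8.90 and 2.22 CPM, from 0 to 5 UMIs), but 0.690 in endothelial-like nuclei (12.4 and 14.1 against 9.06 and 9.26 CPM) and 0.579 in stellate-like nuclei (9.45 and 7.52 against 3.14 and 6.69 CPM). Rbbp8, the end-trimming partner, gave 1.67 in B and plasma-like nuclei (14.5 and 31.2 against 34.8 and 41.6 CPM, from 4 to 8 UMIs) and 0.717 in monocyte and dendritic-like nuclei (120 and 124 against 95.7 and 79.6 CPM, from 11 to 23 UMIs). These genes were picked because their groups did not overlap in these classes and pointed opposite ways between them. That difference between classes was not tested, and no result is drawn from it. Of all genes that passed the filter, both Brca1-KO-labelled libraries were above both Brca1-WT for 12.4% (Kupffer), 10.6% (endothelial) and 15.3% (B and plasma). They were below both for 22% (endothelial), 20% (stellate) and 18.3% (monocyte and dendritic). For Bard1 in endothelial-like nuclei, the Brca1-KO-labelled replicate 2 differed in makeup: 53 of its nuclei lay in cluster 0 and 608 in cluster 2, against 1102 and 423 in Brca1-WT replicate 1, and its endothelial markers summed to 9275 CPM, against 15963 to 16909 in the others. Bard1 was at 13.6 CPM in cluster 0 and 9.25 in cluster 2, and within cluster 0 the libraries gave 13.3, 17.8, 8.30 and 24.6 CPM, the last from 3 UMIs, so the groups overlapped there. In cluster 2 they gave 10.4, 10.6, 8.58 and 7.32 CPM, without overlap. The part of this makeup in the Bard1 ratio was not tested.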

How the results depend on the processing

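None of the 10 genes was called between genotypes under any setting. Counts of called genes over all genes were, with DESeq2, 23 (hepatocyte), 21 (all nuclei), 1 (B and plasma) and 0 (monocyte and dendritic), and, with no count filter, 2, 2, 7 and 5, with 70 (Kupffer), 18 (T/NK), 39 (endothelial) and 30 (stellate). Leaving out 1 library gave 0 to 30 (hepatocyte), 0 to 270 (all), 0 to 142 (B and plasma), 0 to 522 (Kupffer), 0 to 77 (T/NK), 0 to 606 (endothelial), 1 to 47 (monocyte and dendritic) and 0 to 425 (stellate), highest each time when replicate 1 of Brca1-KO was left out. The cause was not tested.

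A replicate block left 0 calls in monocyte and dendritic-like nuclei (1 without it) and 0 elsewhere. Deviations of same-numbered libraries correlated at -0.117 (hepatocyte), so the numbers were not taken as pairing. In that fit Bard1 was at -0.0040 and Rad51b at 0.083 (hepatocyte), and Brca1 at -0.092 and Rad51b at 0.10 (all nuclei).

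Genotype signs also turned as follows. Without clusters mostly of 1 library, Brca1 was at 0.15, Brip1 at -0.50, Fancf at -0.20 and Bap1 at 0.0070 (0.020 with thinned nuclei). Library totals, under which the median gene in all nuclei moved to -0.13 from 0.00, put Atm at -0.032 (hepatocyte) and -0.083 (all) and Brca1 at -0.012 (all). Leaving out 1 library in hepatocyte-like nuclei gave -0.28 to 0.35 for Atm, -0.63 to 0.59 for Bard1, -1.06 to 0.55 for Brca1, -0.49 to 0.54 for Brip1, -0.56 to 0.19 for Palb2, -1.01 to 1.37 for Rad51b, -0.23 to 0.20 for Rbbp8, -0.034 to 0.40 for Uimc1, -0.93 to 0.17 for Ercc1, -0.17 to 0.032 for Recql5 and -0.67 to 0.0030 for Xrcc5. In all nuclei it gave -0.22 to 0.29 for Atm, -0.86 to 0.65 for Brca1, -0.37 to 0.68 for Brip1, -0.78 to 1.17 for Rad51b and -0.22 to 0.094 for Rbbp8.

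Class signs turned for Brca1 in B and plasma (0.15 DESeq2, 0.074 in the classes alone, 0.38 library totals, -0.25 to 0.15 leaving out 1 library), Rad51b in Kupffer (0.041 DESeq2, 0.055 library totals, -0.59 to 0.042) and Brca2 in stellate (0.18 DESeq2, -0.16 to 0.045). Leaving out 1 library gave -0.089 to 0.31 for Brip1 in Kupffer and -0.092 to 0.50 for Rbbp8 in T/NK. Library totals gave 0.13 for Rbbp8 and 0.094 for Uimc1 in B and plasma, 0.14 for Uimc1 in T/NK, and 0.089 for Uimc1 and 0.067 for Brca1 in monocyte and dendritic.

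The difference in the share of hepatocyte-like nuclei with a UMI turned without thinning for Brca1 (1.15 percentage points), Palb2 (0.0713), Rbbp8 (1.57) and Rad51b (0.342), and at 2000 UMIs for Palb2 (0.0488), Brip1 (-0.0178) and Atm (-0.655). Leaving out 1 library gave -0.541 to 0.785 for Atm, -0.0249 to 0.0920 for Bard1, -1.07 to 0.198 for Brca1, -0.249 to 0.499 for Brip1, -0.158 to 0.0454 for Fancd2, -0.110 to 0.103 for Palb2, -7.84 to 3.60 for Rad51b and -0.686 to 2.96 for Uimc1. Genes without overlap then numbered 4 to 7, against 2 with all libraries. With a library left out groups fail to overlap more readily, so these counts cannot be compared. Genes higher in proliferation-gene nuclei in all 4 libraries numbered 0 and 0 of 10 with a minimum of 1 and 3 genes (hepatocyte), and 3 and 2 (all nuclei), against 1.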

Other observations

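Brip1os, a transcript named for the strand opposite Brip1, gave 80.2 and 67.1 CPM in hepatocyte-like nuclei of Brca1-WT and 55.1 and 46.1 in those of the Brca1-KO-labelled libraries. Of all genes tested there, 19.7% were likewise lower in both Brca1-KO-labelled libraries, and 0 of 15113 genes were called, so no genotype difference is read from it.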
